A study of Mus musculus with 5 samples.

Results

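Interferon-stimulated genes are the genes that cells switch on when they detect interferon or foreign nucleic acid. A list of 37 of them was followed here in mouse liver: sensors of foreign nucleic acid, transcription factors of the STAT and IRF families, and effectors. Members were found by exact gene symbol in the annotation of the array, and the brightest probe set, by the mean of the 5 arrays, stood for a gene with several. A probe set of their own was found for 34 of the 37, among 19938 genes in all: 7 sensors, 4 factors and 23 effectors. Of the other 3, Isg15 and Gbp2 lay on probe sets annotated to a second gene as well, and no probe set named Ifi44, so these were not tested.

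Expression was measured on 5 Affymetrix gene arrays, each from the liver of a male mouse of about 10 months on regular food. The 2 control livers were normal tissue of genotype Hdac3FL/+; AlbCre+. The 3 other arrays were of tumour tissue from livers of genotype Hdac3FL/-; AlbCre+, which lack the histone deacetylase Hdac3 in hepatocytes. All 5 mice thus carried Cre under the albumin promoter, which is active in hepatocytes, and Cre also acts on the floxed allele of the controls, leaving them the wild-type allele. Normal tissue of null livers and tumours of other genotypes were not analysed here, so genotype and tumour cannot be told apart.

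As background, RIG-I-like receptors and other sensors bind viral RNA or DNA in the cytoplasm and lead to the release of type I interferon. Interferon binds its receptor, Jak kinases phosphorylate STAT proteins, and a complex that holds STAT2 and IRF9 then binds interferon-stimulated response elements in promoters. In liver, hepatocytes, resident macrophages, endothelial cells and infiltrating lymphocytes can all respond, and many sensors and factors are themselves induced by interferon.

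The targeted gene was lower in each tumour than in either control, with Hdac3 log2 readings of 8.21 and 8.37 in the controls and 6.78, 6.57 and 6.65 in the tumours. The deposited values are on a log2 scale, on which 1 unit is a 2-fold difference, and array medians lay between 5.66 and 5.77. The number of arrays limits the precision, and values of different probe sets are not compared as levels. Over all genes, the correlation was 0.99 between the controls, between 0.96 and 0.98 among the tumours and between 0.91 and 0.95 across groups, lowest for tumour 3. The 11 hepatocyte markers averaged 12.31 and 12.37 in the controls and 12.09, 11.82 and 11.68 in the tumours, so hepatocyte transcripts were well measured in every sample. In bulk tissue, fewer cells of a type and less RNA per cell cannot be told apart.

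Of the 34 measured interferon-stimulated genes, 8 rose in the tumours, which is 23.5%, and 0 fell. The risen members were Usp18, Oasl2, Oasl1, Trim25, Irf7, Parp14, Ifit2 and Samhd1. Among all 19938 genes, 5.60% rose and 4.96% fell in the same limma fit, at a Benjamini-Hochberg adjusted p under 0.05 over all genes. At an unadjusted p under 0.05, 20 members were higher in the tumours and 0 were lower, which is 58.8% of them, against 25.2% of all genes (2570 higher and 2453 lower). Without moderation across genes 0 members were called in either direction.

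The members without a call also lay mostly on the upper side. All 3 tumours exceeded both controls for 24 of the 34 members, which is 70.6%, against 21.1% of all genes. The opposite order was seen for 0 members and for 23.1% of all genes, and the groups overlapped for 10 members. The difference was above 0 for 30 members and below 0 for 4 (Ifih1, Irf9, Mx2 and Ifi35). The median difference over the members was 0.88, while that over all genes was −0.02. With 2 controls against 3 tumours, an exact two-sided permutation test of a single gene cannot go below p = 0.1, so the calls depend on limma's pooling of the spread over genes.

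**Figure D1:**
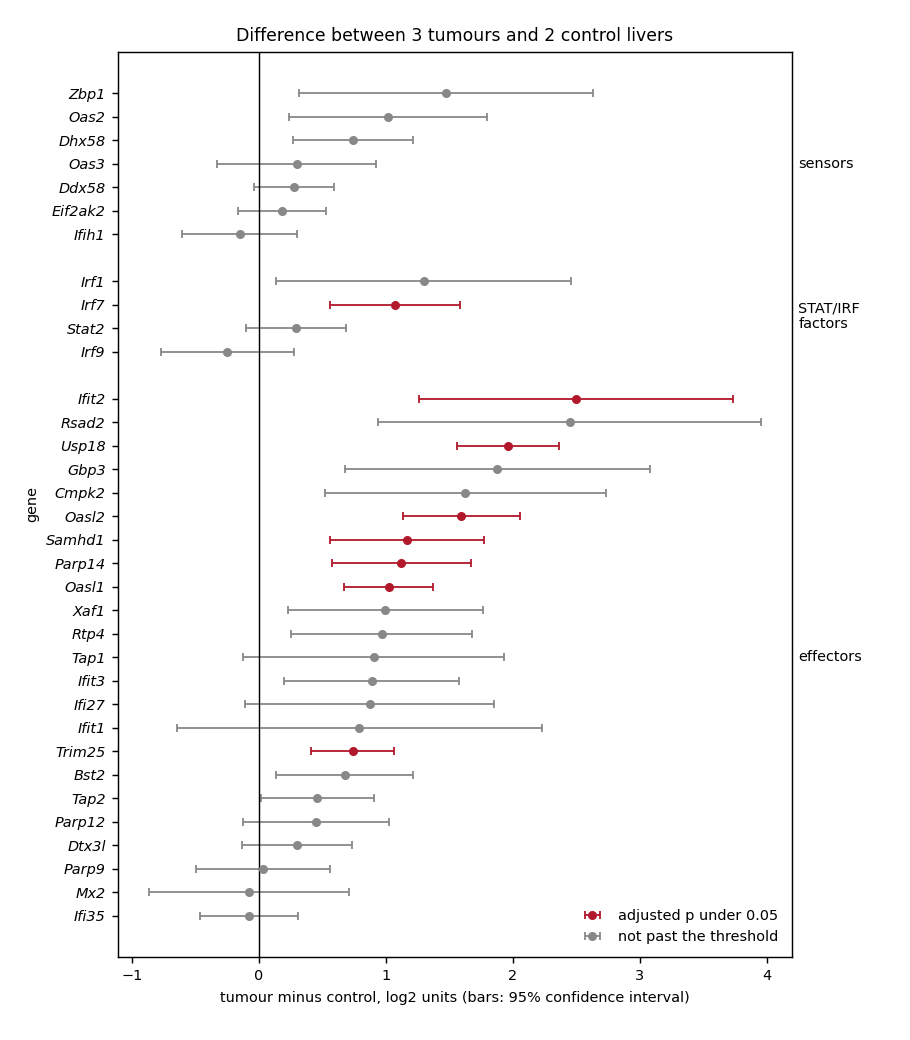
Tumour minus control difference of each of the 34 measured members on the log2 scale, with the 95% confidence interval of the limma fit, grouped by role. The 8 risen members are marked, and 30 of the 34 points lie above 0.

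The calls depended on both controls. With control 1 left out, Usp18 alone of the 8 stayed below the threshold (adjusted p = 0.0354), and the highest adjusted p of the others was 0.224. With control 2 left out, 0 of the 8 passed, and their adjusted p ran from 0.052 to 0.263. All genes lost calls there too: 0.381% of them rose without control 1 and 0.311% without control 2. Without tumour 1, Irf7 was lost (adjusted p = 0.0538), and without tumour 2, Trim25, Ifit2 and Samhd1 were lost. Without tumour 3 the same 8 rose and 6 more joined them.

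The sensors had the smallest median difference of the 3 roles, 0.30, and 0 of the 7 were called by limma. Of the 7, 3 had an unadjusted p under 0.05 (42.9%, against 25.2% of all genes). For 5 sensors every tumour was higher than both controls (71.4%, against 21.1% of all genes). The sensor median was 0.50 without tumour 2 and 0.51 without the dimmest genes, and it stayed below those of the other roles in both. Dhx58 encodes LGP2, the RIG-I-like receptor that modulates the other 2 receptors of that family. Its log2 readings came to 6.48 and 6.10 in the controls and 6.89, 6.92 and 7.29 in the tumours, so all tumours exceeded both controls, by 0.74 on average (95% confidence interval 0.27 to 1.22, adjusted p = 0.0655). Ddx58 encodes RIG-I, which binds short viral RNA with a triphosphate end. Its readings came to 8.06 and 8.09 in the controls and 8.46, 8.36 and 8.23 in the tumours, a separation of the groups by a small margin, with a difference of 0.28 (−0.04 to 0.59, adjusted p = 0.254). Ifih1 encodes MDA5, the receptor for long double-stranded RNA, and the groups overlapped at 8.41 and 8.29 in the controls and 8.30, 8.41 and 7.89 in the tumours. Tumour 3 was lowest for Ifih1, and the difference was −0.15 (−0.60 to 0.30, adjusted p = 0.693).

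The cytoplasmic sensor with the largest difference was Zbp1, which binds Z-form nucleic acid and can start necroptosis. It read 6.10 and 5.77 in the controls and 7.02, 6.82 and 8.39 in the tumours, with tumour 3 well above the other tumours, and the difference was 1.48 (0.32 to 2.64, adjusted p = 0.115). Oas2 and Oas3 are oligoadenylate synthetases, which on binding double-stranded RNA make the messenger that activates RNase L. Oas2 read 5.71 and 5.23 in the controls and 6.81, 5.90 and 6.76 in the tumours, all tumours being above both controls, with a difference of 1.02 (0.24 to 1.80, adjusted p = 0.109). Oas3, its neighbour on chromosome 5, read 5.18 and 5.31 in the controls and 5.48, 5.14 and 6.0 in the tumours, and tumour 2 lay below both controls. Eif2ak2 encodes PKR, the kinase that halts translation on binding double-stranded RNA. Its values of 6.98 and 6.99 in the controls and 7.15, 7.01 and 7.33 in the tumours separated the groups by only a narrow gap, with a difference of 0.18 (adjusted p = 0.503).

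Of the 4 transcription factors, Irf7 rose. Irf7 is the factor that amplifies type I interferon production and is itself induced by interferon. It read 7.77 and 7.39 in the controls and 8.90, 8.36 and 8.71 in the tumours, so each tumour was above both controls and tumour 2 was the lowest of the 3. The difference was 1.07 (SE 0.21, 95% confidence interval 0.56 to 1.59, 2.10-fold, adjusted p = 0.0307), a call lost without either control or without tumour 1. Irf1 is induced mainly by interferon gamma and activates antigen presentation genes. It read 7.46 and 7.13 in the controls and 7.99, 8.22 and 9.57 in the tumours, with all tumours above both controls and tumour 3 far above the rest, and the difference was 1.30 (0.14 to 2.46, adjusted p = 0.156). A second Irf1 probe set gave 5.92 and 5.65 in the controls and 6.04, 6.07 and 6.51 in the tumours, a smaller difference of 0.41 in the same direction.

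Stat2 and Irf9, both in the interferon-activated complex, did not separate the groups. Stat2 read 8.30 and 8.15 in the controls and 8.30, 8.55 and 8.70 in the tumours, and tumour 1 was level with the higher control. Its difference was 0.29 (−0.10 to 0.68, adjusted p = 0.337). Irf9, the DNA-binding subunit, read 7.39 and 7.30 in the controls and 7.31, 6.71 and 7.28 in the tumours, with tumour 2 the lowest array. The difference of Irf9 was −0.25 (−0.77 to 0.27, adjusted p = 0.553), and its interval excludes a rise of the size measured for Irf7.

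Among the 23 measured effectors 7 rose, which is 30.4%, against 5.60% of all genes. The median difference of the effectors was 0.90, beside 0.68 for the factors and 0.30 for the sensors. No test was made between these roles, since genes are not replicates. The first group of effectors covers the Isg15 system and ADP-ribosylation, in which 3 of 6 measured members rose. Usp18 removes the ubiquitin-like modifier Isg15 from proteins and also dampens signalling at the type I receptor. It had the lowest adjusted p of all members, with values of 5.84 and 5.45 in the controls and 7.66, 7.68 and 7.48 in the tumours. The range among the 3 tumours was 0.20, and they lay far above both controls, and the difference was 1.96 (SE 0.16, 95% confidence interval 1.56 to 2.36, 3.90-fold, adjusted p = 0.00307). Trim25, the ubiquitin ligase that activates RIG-I and also attaches Isg15, read 8.60 and 8.64 in the controls and 9.21, 9.42 and 9.46 in the tumours. The groups did not overlap and the rise was 0.74 (SE 0.13, 1.67-fold, adjusted p = 0.0245).

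Parp14, Parp9 and Dtx3l are neighbours on chromosome 16, and the last pair form a complex that joins ADP-ribosylation to ubiquitin transfer. Parp14, an ADP-ribosyltransferase, read 7.75 and 7.74 in the controls and 8.70, 8.62 and 9.29 in the tumours, with both controls well below every tumour. It rose by 1.12 (SE 0.22, 2.18-fold, adjusted p = 0.0321). Dtx3l, the ubiquitin ligase of the complex, read 8.07 and 8.17 in the controls and 8.13, 8.55 and 8.58 in the tumours, and tumour 1 lay between the controls. Parp9 read 8.13 and 7.98 in the controls and 7.70, 8.33 and 8.23 in the tumours, with tumour 1 below both controls, and its difference of 0.03 changed sign once all arrays were set to the same median. The 3 neighbours thus had different readings, and differences between them were not tested. Parp12, an interferon-induced ADP-ribosyltransferase that blocks viral replication, read 8.45 and 8.16 in the controls and 8.42, 8.71 and 9.14 in the tumours. The groups overlapped for Parp12, with a difference of 0.45 (adjusted p = 0.311).

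The effectors that act on RNA and nucleotides had the largest median difference of the effector groups, 1.38. Of these 8 effectors 4 rose, against 5.60% of all genes. All 8 were higher in every tumour than in both controls, against 21.1% of all genes. Ifit2, Ifit3 and Ifit1 belong to a family of proteins with tetratricopeptide repeats that bind RNA and block translation of viral messages. Response elements for the interferon-activated complex lie in promoters, and windows of 250 bases before the start are printed to show which family members hold the motif. The motif searched was GAAANNGAAA on both strands (TTTCNNTTTC on the other), with overlapping matches allowed, and capitals mark each match. Rsad2 is shown for a single match and Oasl2, a risen member, for a window without one. The windows are RefSeq's, on GRCm38.p6, at chr19:34640639-34640888 (plus strand) for Ifit1, chr19:34550444-34550693 (plus strand) for the first start of Ifit2, chr19:34583279-34583528 (plus strand) for Ifit3, chr12:26456453-26456702 (minus strand) for Rsad2 and chr5:114896684-114896933 (plus strand) for Oasl2, each written along its gene.
Ifit1: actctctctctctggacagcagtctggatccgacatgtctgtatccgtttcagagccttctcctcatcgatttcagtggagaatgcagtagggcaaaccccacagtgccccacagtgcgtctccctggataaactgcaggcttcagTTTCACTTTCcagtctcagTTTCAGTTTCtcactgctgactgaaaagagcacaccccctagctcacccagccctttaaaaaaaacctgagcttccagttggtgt
Ifit2: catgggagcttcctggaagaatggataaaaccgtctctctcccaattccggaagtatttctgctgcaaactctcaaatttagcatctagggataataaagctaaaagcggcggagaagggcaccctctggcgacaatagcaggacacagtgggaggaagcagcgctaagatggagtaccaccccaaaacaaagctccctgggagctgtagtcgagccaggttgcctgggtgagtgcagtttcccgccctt
Ifit3: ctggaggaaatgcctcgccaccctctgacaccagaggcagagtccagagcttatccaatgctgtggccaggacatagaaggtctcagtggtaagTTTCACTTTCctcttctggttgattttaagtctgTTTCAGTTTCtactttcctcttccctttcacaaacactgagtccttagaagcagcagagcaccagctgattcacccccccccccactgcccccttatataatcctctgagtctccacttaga
Rsad2: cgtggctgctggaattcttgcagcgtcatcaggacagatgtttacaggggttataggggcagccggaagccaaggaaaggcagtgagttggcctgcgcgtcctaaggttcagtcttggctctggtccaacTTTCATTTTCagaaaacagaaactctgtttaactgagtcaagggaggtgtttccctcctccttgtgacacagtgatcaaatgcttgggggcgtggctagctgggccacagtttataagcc
Oasl2: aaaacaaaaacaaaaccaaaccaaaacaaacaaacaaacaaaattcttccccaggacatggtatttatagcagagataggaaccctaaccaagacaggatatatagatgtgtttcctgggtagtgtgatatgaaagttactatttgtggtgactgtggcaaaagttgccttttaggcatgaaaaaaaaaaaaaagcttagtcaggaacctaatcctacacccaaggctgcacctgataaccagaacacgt

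Ifit2 had the largest difference of the members. Its readings came to 4.85 and 4.90 in the controls and 6.53, 7.22 and 8.37 in the tumours, with each tumour far above both controls and tumour 3 the highest. The difference was 2.50 (SE 0.50, 95% confidence interval 1.27 to 3.73, 5.66-fold, adjusted p = 0.0336), a call lost without either control or without tumour 2. Ifit3, next to Ifit2 on chromosome 19, read 5.76 and 5.74 in the controls and 6.25, 6.49 and 7.19 in the tumours, again with every tumour above both controls, and the difference was 0.89 (0.20 to 1.58, adjusted p = 0.111). Ifit1 stayed close to the controls in tumours 1 and 2 and was high in tumour 3, at 5.89 and 5.82 in the controls and 6.07, 5.96 and 7.90 in the tumours. Its difference was 0.79 (−0.64 to 2.23, adjusted p = 0.48), and without tumour 3 it was 0.17. The window of Ifit1 printed above holds 2 matches and that of Ifit3 also 2, whereas neither window of Ifit2 holds one.

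Oasl1 and Oasl2, neighbours on chromosome 5, encode relatives of the oligoadenylate synthetases. Oasl1, which in mouse limits translation of Irf7, read 7.77 and 7.77 in the controls and 8.71, 8.68 and 8.98 in the tumours. The controls were level with each other and about 1 unit below the tumours, and Oasl1 rose by 1.02 (SE 0.14, 2.03-fold, adjusted p = 0.0119). Oasl2 read 5.91 and 6.19 in the controls and 7.53, 7.48 and 7.93 in the tumours, with all tumours above both controls, and rose by 1.60 (SE 0.19, 95% confidence interval 1.14 to 2.05, 3.02-fold, adjusted p = 0.00741). Samhd1 breaks down deoxynucleotides and restricts retroviruses. It read 7.58 and 7.44 in the controls and 8.32, 8.58 and 9.13 in the tumours, again without overlap, and rose by 1.17 (SE 0.25, 2.24-fold, adjusted p = 0.0386).

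Rsad2 and Cmpk2 are neighbours on chromosome 12. Rsad2 encodes viperin, which makes a chain-terminating nucleotide, and Cmpk2 encodes a mitochondrial nucleotide kinase. Rsad2 read 5.38 and 5.40 in the controls and 6.94, 7.45 and 9.13 in the tumours, with tumour 3 the highest by over 1 unit. Its difference of 2.45 (SE 0.62, 0.94 to 3.96) was close to that of Ifit2 but did not pass the threshold (adjusted p = 0.0605), and it passed without tumour 1 and without tumour 3. Cmpk2 read 5.16 and 4.98 in the controls and 6.0, 6.49 and 7.60 in the tumours, in the same order of tumours, with a difference of 1.63 (0.52 to 2.73, adjusted p = 0.0795).

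None of the remaining 9 effectors was called, 5 of them having an unadjusted p under 0.05, against 25.2% of all genes. Among the GTPases and tetherin, Gbp3, a guanylate-binding protein that acts on the membranes of intracellular pathogens, read 6.43 and 5.60 in the controls and 7.24, 7.65 and 8.79 in the tumours. All tumours were above both controls and tumour 3 was the highest, with a difference of 1.88 (0.68 to 3.08, adjusted p = 0.0669). Bst2, tetherin, holds budding virions at the cell surface. It read 9.14 and 8.93 in the controls and 9.64, 9.40 and 10.08 in the tumours, without overlap, and the difference was 0.68 (0.14 to 1.22, adjusted p = 0.12). Mx2, a dynamin-like GTPase, read 4.99 and 4.63 in the controls and 5.34, 4.31 and 4.54 in the tumours with overlapping groups, and its difference of −0.08 (adjusted p = 0.926) turned above 0 when control 1, tumour 2 or tumour 3 was left out. Members of such gene families can share sequence, and cross-hybridisation between paralogs was not tested.

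The 4 further induced genes had differences between −0.08 and 1.0. Xaf1, which promotes apoptosis by antagonising the inhibitor XIAP, read 5.40 and 4.96 in the controls and 5.78, 6.0 and 6.75 in the tumours, with every tumour above both controls (difference 1.0, adjusted p = 0.11). Rtp4, a receptor transporter that binds viral RNA and inhibits replication, read 7.86 and 7.32 in the controls and 8.44, 8.20 and 9.03 in the tumours, also without overlap (difference 0.97, adjusted p = 0.0966). Ifi27 read 8.75 and 8.46 in the controls and 8.71, 9.59 and 10.12 in the tumours, so tumour 1 lay between the controls and tumours 2 and 3 above them (difference 0.87, adjusted p = 0.249). Ifi35, which partners the STAT-binding protein Nmi, read 7.48 and 7.42 in the controls and 7.16, 7.39 and 7.58 in the tumours, and its groups overlapped (difference −0.08, adjusted p = 0.832). Tap1 and Tap2 form the transporter that carries peptides to MHC class I. Tap1 read 7.14 and 6.72 in the controls and 7.20, 7.66 and 8.64 in the tumours and its tumours stood above both controls, narrowly so in tumour 1 (difference 0.90, adjusted p = 0.254). Tap2 read 7.27 and 7.31 in the controls and 7.45, 7.81 and 7.99 in the tumours, also above the controls in each tumour (difference 0.46, adjusted p = 0.185).

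**Figure D2:**
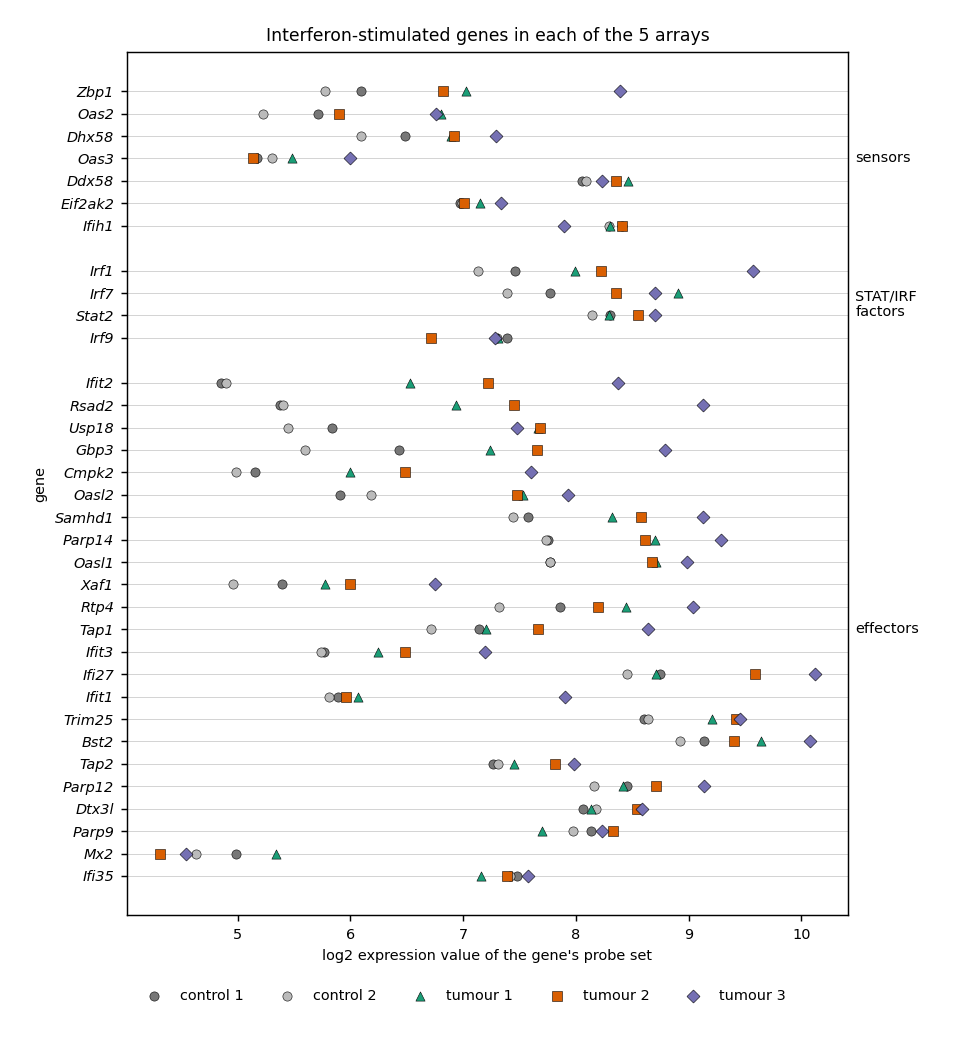
Deposited log2 value of each measured member in each of the 5 arrays, grouped by role, with controls and tumours as separate points. Usp18 has its 3 tumours close together, while Ifit2, Rsad2 and Ifit1 have tumour 3 above the other tumours.

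The tumours did not carry these transcripts equally, and tumour 3 was the highest for most members. Of the 34 members, 26 were highest in tumour 3, 5 in tumour 1 and 3 in tumour 2, which is 76.5% in tumour 3 against 46.6% of all genes. The median difference from the control mean over the members was 0.59 in tumour 1, 0.68 in tumour 2 and 1.25 in tumour 3. Tumour 3 exceeded tumour 1 for 27 members and tumour 2 for 30. These pairwise counts were not made over all genes, whose mean value was 6.16, 6.15 and 6.21 in tumours 1, 2 and 3. Tumours 1 and 2 were closer, tumour 2 being higher for 20 of the 34. The spread among tumours was over 1 unit for 10 members, and 1 of those, Ifit2, rose. Effectors had the widest gap between tumours, with medians of 0.60, 0.80 and 1.52 in tumours 1, 2 and 3, beside 0.39, 0.29 and 0.76 for the sensors and 0.38, 0.55 and 0.80 for the factors.

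**Figure D3:**
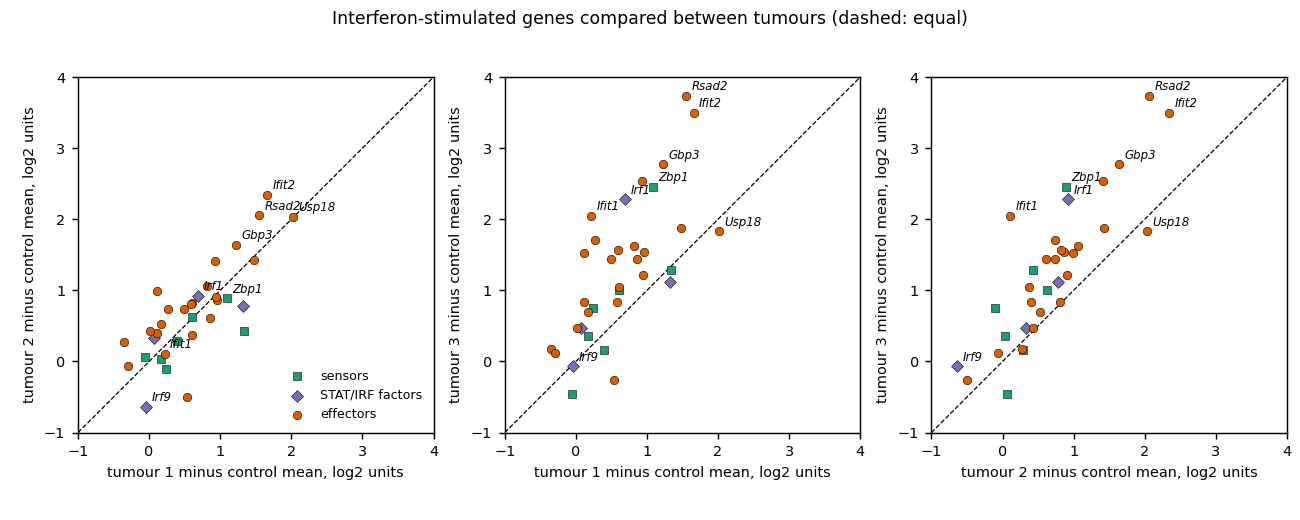
Difference of each member from the control mean, in log2 units, in one tumour against another for the 3 pairs of tumours, with 1 point per member and the line of equality. Most points lie on the side of tumour 3 in its 2 panels, 27 of 34 against tumour 1 and 30 of 34 against tumour 2. The same counts were not made for all genes.

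Without tumour 3, 14 members rose, as did 7.35% of all genes. The 6 gained were Zbp1, Irf1, Ifit3, Rsad2, Cmpk2 and Gbp3, each of which had tumour 3 as its highest array. The members' median difference was then 0.62.

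Promoter windows were matched for 27 of the 37 listed genes, 24 of them with a probe set of their own. The response element motif was found in 7 of those 24, which is 29.2%, and in 3.46% of 27025 genes with a window. The windows with 2 matches were those of Ifit1, Ifit3, Gbp3 and Bst2. In Ifit1 the matches end 76 and 95 bases before the start, and in Ifit3 113 and 147. The 2 matches of Gbp3 overlap, as do those of Bst2. Rsad2, Stat2 and Oas3 had 1 each. None of the 6 risen members with a window held it, and 7 of the 18 others did. A second motif, TTCNNNGAA, which reads the same on both strands and is the core bound by STAT dimers, was in 5 of the 24 windows (20.8%) and in 8.13% of all. A match is a description of letters, and a window without one says nothing about which factors bind there.

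The rest of the pathway was examined with lists of ligands, receptors, inhibitors and further sensors. Of 16 measured interferon genes, the ligands, 0 were called by limma. An unadjusted p under 0.05 was found for 2 of them (12.5%, against 25.2% of all genes), Ifna16 and Ifna2, both lower in the tumours. Ifna2 read 5.71 and 5.48 in the controls and 4.68, 5.20 and 4.0 in the tumours, below both controls in each tumour (difference −0.97, adjusted p = 0.147). For Ifna16 the difference was −0.48 (adjusted p = 0.112). Ifna14 and Ifna12 followed with differences of −0.27 and −0.27. Of the 16, 8 were dim, with means below the lower quartile of all genes in both groups. Ifna2 and Ifna16 were not among these 8, but their tumour means, 4.63 and 4.59, were below that quartile. The interferon alpha genes are close copies of each other, and cross-hybridisation was not tested. Ifnb1, which encodes interferon beta, had a difference of 0.12, and Ifng, which encodes interferon gamma, one of 0.14.

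Of 9 receptor and kinase genes 3 rose, which is 33.3%, against 5.60% of all genes. Il10rb, a subunit shared by the receptors for interferon lambda and interleukin 10, read 6.60 and 6.79 in the controls and 8.66, 8.49 and 8.64 in the tumours. The rise was 1.90 (SE 0.13, 3.73-fold, adjusted p = 0.00192), and this call held without each array in turn. Ifngr1 and Ifngr2, the subunits of the interferon gamma receptor, rose by 1.92 (adjusted p = 0.0302) and 0.94 (adjusted p = 0.0115), and both calls were lost without either control. Of the receptor for type I interferon, Ifnar1 had a difference of 0.02 (−0.30 to 0.35) and Ifnar2 one of 0.18 (−0.17 to 0.53), and neither passed the threshold. Jak1, the kinase that all interferon receptors use, had 0.97 (adjusted p = 0.0832).

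Of 12 feedback inhibitors 1 rose, which is 8.33%, against 5.60% of all genes. It was the phosphatase Ptpn1, by 0.93 (adjusted p = 0.0483), a call that ended without any single array other than tumour 3. The differences of the phosphatases Ptpn6 and Ptpn11 were 1.07 (adjusted p = 0.0546) and 0.53 (adjusted p = 0.068), and that of Pias2, an inhibitor of STAT proteins, was −0.47 (adjusted p = 0.0642).

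In the upstream sensing list 7 of 19 rose (36.8%, against 5.60% of all genes). These were Tlr7 (2.17) and Tlr8 (2.10), receptors for single-stranded RNA in endosomes, Unc93b1 (1.22), which carries them there, and Tlr4 (1.48), the receptor for lipopolysaccharide. Sting1 (1.74), the adaptor of the cytoplasmic DNA pathway, Aim2 (1.18), a DNA sensor of inflammasomes, and Irf8 (1.22), a factor of myeloid and dendritic cells, completed them. Adjusted p ran from 0.0253 to 0.0462, and without either control 0 of the 7 passed. Aim2, Tlr4, Tlr7 and Tlr8 were dim in the controls, with means below the lower quartile. Among 12 other STAT and IRF factors, Irf8 and Stat6 (0.52, adjusted p = 0.041) rose, which is 16.7%, against 5.60% of all genes. The call of Stat6 was lost without any single array other than tumour 3. Irf2, a factor that competes with Irf1, had −0.45 (adjusted p = 0.0725), and the corepressor Irf2bp2 0.88 (adjusted p = 0.111).

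In a wider list of 65 measured interferon-stimulated genes that are not members, 19 rose (29.2%) and 0 fell, against 5.60% and 4.96% of all genes. This list too was chosen with earlier results of these data known, so it is not an independent check of the members. Of the 65, 53 were highest in tumour 3, which is 81.5%, against 46.6% of all genes. The lowest adjusted p were those of Casp4 (3.19), an inflammatory caspase, Lgals3bp (1.79), a secreted glycoprotein, Mlkl (2.97), which carries out necroptosis, and Trim30a (1.53). Without either control, Casp4 alone of the 19 passed. Of 17 MHC class I presentation genes 1 rose, which at 5.88% is near the 5.60% of all genes. It was H2-Q4, by 0.80 (adjusted p = 0.049), a call lost without either control or tumour 2. The immunoproteasome subunit Psmb8 had 1.05 (adjusted p = 0.194).

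**Figure D4:**
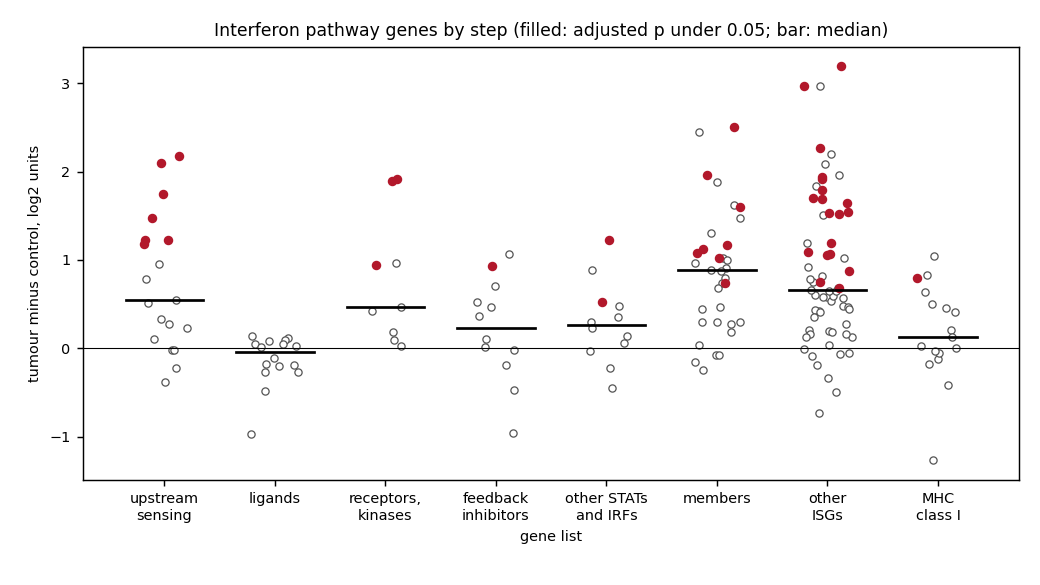
Tumour minus control difference, in log2 units, of the genes of each step of the interferon pathway, with 1 point per gene, filled where called, and a bar at the median. The ligands have a median of −0.05, the members one of 0.88 and the other interferon-stimulated genes one of 0.66.

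Of the cell marker lists, those of macrophages, plasmacytoid dendritic cells and hepatocytes held called genes, and in the others no gene was called. Of 19 macrophage markers, 11 rose and 1, Cd163, fell by 2.20, and without a control at most 1 of these 12 calls held, that of C1qc without control 2. The risen markers made up 57.9% of the list, against 5.60% of all genes. Among them were C1qc (3.33), a complement subunit, and Cd68 (3.02), a lysosomal glycoprotein. The mean level of the 19 was 6.27 and 6.67 in the controls and 8.37, 7.57 and 8.09 in the tumours. Of the 19, 12 were highest in tumour 3, which is 63.2%, against 46.6% of all genes, and 7 in tumour 1. The median difference from the control mean was 2.22, 1.48 and 2.43 in tumours 1, 2 and 3. The mean level was nonetheless highest in tumour 1. Vsig4 read 7.07 and 7.825 in the controls and 9.84, 7.34 and 4.55 in the tumours. Clec4f read 7.51 and 7.87 in the controls and 9.28, 6.37 and 5.03 in the tumours. Timd4 and Marco were likewise highest in tumour 1 and below both controls in tumour 3, and these genes were not called. The part of the macrophage markers in the members' result was not tested.

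By limma 0 of 17 T and NK cell markers were called. Of the 17, 4 had an unadjusted p under 0.05, which at 23.5% is near the 25.2% of all genes. All 17 were highest in tumour 3, as were 46.6% of all genes, though 4 of the 17 were dim in both groups. Their mean level was 4.79 and 4.78 in the controls and 5.03, 5.04 and 6.04 in the tumours. Cd3g, a subunit of the T cell receptor complex, read 3.88 and 4.18 in the controls and 5.06, 5.61 and 8.06 in the tumours. It was dim in the controls, and its difference of 2.22 was the largest on the list, whose median was 0.41. The other measured subunits, Cd3e, Cd3d and Cd247, had smaller differences of 0.36, 0.32 and 0.41. Most members were likewise highest in tumour 3, and the part of T and NK cells in that was not tested. Plasmacytoid dendritic cells, a source of type I interferon, have Siglech as a defining marker. It read 4.81 and 4.60 in the controls and 4.68, 4.83 and 4.55 in the tumours, close to the lower quartile of all genes, 4.62 in the controls and 4.63 in the tumours. Of 9 markers on that list, Ly6d (5.39) and Irf8 rose (22.2%, against 5.60% of all genes), and Bst2 is also one of the members. The other 7 were not called, and the median difference of the 9 was 0.21. Ly6d read 5.60 and 5.43 in the controls and 12.02, 10.99 and 9.71 in the tumours. Which cells carried Ly6d was not tested. The call of Ly6d was lost without control 1 (adjusted p = 0.0969) or control 2 (adjusted p = 0.104), and that of Irf8 without either control or tumour 2. B cell and plasma cell markers averaged 4.87 and 4.44 in the controls and 4.83, 4.60 and 4.48 in the tumours, and neutrophil markers 4.36 and 4.40 against 4.71, 4.31 and 4.37. Of these lists 0 genes were called, with 1 B cell and 0 neutrophil markers at an unadjusted p under 0.05. Endothelial markers had 0 of 10 called and 1 at that unadjusted p, with means of 7.46 and 7.61 in the controls and 8.52, 7.53 and 6.45 in the tumours. Of 6 cholangiocyte markers 0 were called and 3 had an unadjusted p under 0.05, and their median difference was 0.50. Among hepatocyte markers, Apoh fell by 1.22 and Ttr fell by 0.72, calls that were both lost without control 1, control 2 or tumour 2, and that of Ttr also without tumour 1.

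**Figure D5:**
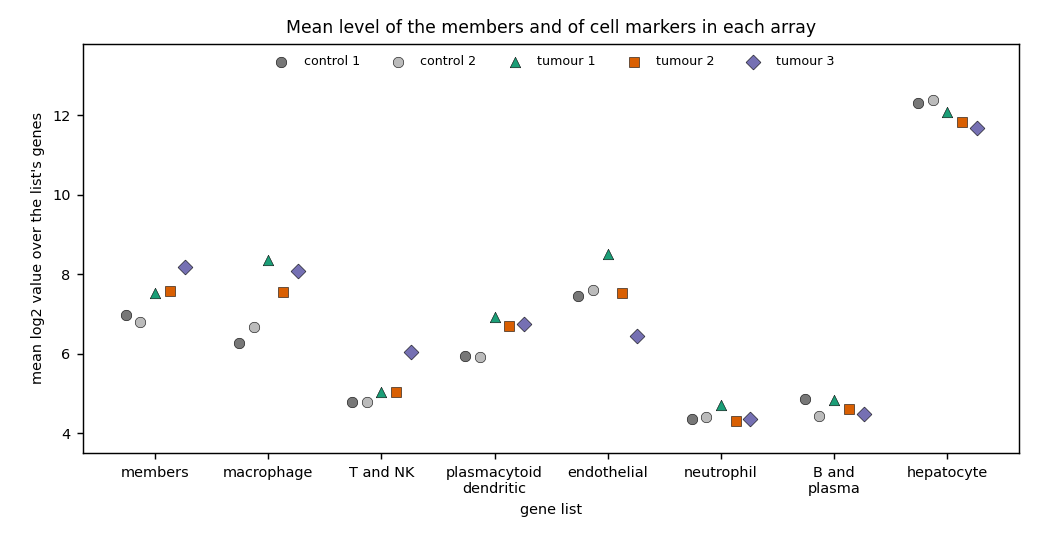
Mean log2 level of 7 cell marker lists and of the members in each of the 5 arrays. The mean of the T and NK cell markers is highest in tumour 3, at 6.04, and that of the macrophage markers in tumour 1, at 8.37, although 12 of the 19 macrophage markers are highest in tumour 3.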

How the data were processed

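The comparison was of 2 control livers with 3 tumours, grouped by their labelled genotype, and the labels call the arrays biological replicates. The authors deposited log2 expression values per probe set, and GCOS and RMA are named, without version or role, in the submitters' processing notes. RMA normalises arrays by quantiles and compresses low differences. The genome build was not given in the sources used here, and 0 columns of other samples were present. Of 28853 probe sets, 21789 had 1 gene symbol in the platform annotation, 1621 several and 5443 none, and only the first were used. For 999 genes with several probe sets the brightest was kept, leaving 19938 genes with no filter on dim ones.

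The model, limma 3.58.1 (lmFit, eBayes) in R 4.3.3, had no covariates, 3 residual degrees of freedom and 2.98 prior ones. Its two-sided p-values were adjusted over all genes by Benjamini-Hochberg, with a threshold of 0.05. The script was tested on simulated data. Python 3.11.15, pandas 2.3.3 and matplotlib 3.10.9 handled tables and figures. Alternatives were repeated quantile normalisation, a common median, mean probe sets, a filter on the dimmest 40% of genes, robust eBayes with a variance trend, array weights, a replicate block, no moderation, a 1.2-fold treat, other thresholds and leaving out each array. A control left alone in its group is taken to vary as the tumours do.

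The members and lists were chosen with earlier results of these data known. Named genes were Hdac3, all members, up to 4 genes with the smallest p in each pathway list plus all past the threshold where these were 8 or fewer, and up to 3 in each marker list. Ifnb1, Ifng, Ifnar1, Ifnar2, Siglech, Vsig4, Clec4f, Timd4, Marco, Cd3e, Cd3d and Cd247 lie outside this rule, chosen after their values were seen.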

Additional observations from a re-analysis of the deposited data

Results flagged for a closer look

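One probe set outside the tested members read high in the tumours. It is annotated to both Gbp2 and Gbp2b, guanylate-binding proteins, so it had no row of its own in the fit. On the log2 scale it read 5.60 and 5.41 in the controls and 7.09, 7.81 and 9.70 in the tumours, every tumour being above both controls and tumour 3 the highest. The tumour mean exceeded the control mean by 2.70, and this difference was not tested. Which of the 2 genes was measured cannot be told apart.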

How the results depend on the processing

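Of all 19938 genes 2106 were called, and of the members 8 rose. Array weights gave 3252 genes and 13 members, an ordinary test without moderation 18 and 0, and treat against a 1.2-fold change 1153 and 3. An adjusted p under 0.01 gave 505 and 2, and one under 0.1 gave 3326 and 13. Leaving out 1 array at a time gave 108 to 2719 genes and 0 to 14 members, the fewest in both cases without control 2. With the replicate block 2376 genes were called and 14 members rose. The labels call the arrays biological replicates and state no pairing. Tumour 3 is alone in its block, so the differences with the block equal those without tumour 3. Deviations of same-numbered arrays from their group means had correlations of 0.0039 and −0.0129. With 2 controls, the control deviations mirror each other, so these values cannot decide whether the samples were paired. The number of members fallen was 0 in each setting run, and the same 8 members rose under repeated quantile normalisation and a common median, and, with Rsad2 added, after removal of dim genes. The calls of Ptpn1 and Ttr ended under repeated quantile normalisation, and those of Stat6 and H2-Q4 under a variance trend and robust settings together, Stat6 also with a common median. Median differences over the members and over each role kept their direction and moved by less than the spread between the tumours, though the sensors' 0.30 became 0.50 without tumour 2 and 0.51 without dim genes. Signs turned for 4 uncalled members: Parp9 to −0.0233 with a common median, and with the replicate block Ifih1 to 0.0027, Parp9 to −0.0390 and Mx2 to 0.0184. Over single arrays left out, Mx2 ran from −0.38 to 0.14, Parp9 from −0.0891 to 0.23, Ifi35 from −0.18 to 0.0315 and Ifih1 from −0.26 to 0.0027. The causes were not tested. The number of arrays, 2 against 3, limits all of these.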

Other observations

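Isg15, the ubiquitin-like modifier that Usp18 removes, was measured by a probe set also annotated to Gm9706. It read 5.42 and 5.29 in the controls and 5.66, 5.26 and 6.13 in the tumours, so tumour 2 lay below both controls. The difference of 0.33 was not tested.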
